A study of Mus musculus with 12 samples.

Results

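The genes described here encode 9 plasma carrier proteins that hepatocytes secrete: Alb, Gc, Ttr, Rbp4, Ahsg, Fetub, Hpx, Ambp and Serpina6. They were chosen by gene symbol. All 9 were found among the 53599 genes of the count table, and all 9 were among the 16210 genes that passed the filter on low counts. The least counted, Serpina6, had at least 47 counts in every library.

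Plasma carriers bind ligands that are poorly soluble or harmful when free. Albumin (Alb) is the most abundant plasma protein and carries fatty acids, bilirubin and many drugs, and vitamin D binding protein (Gc) is its relative. Transthyretin (Ttr) carries thyroxine and binds retinol binding protein (Rbp4), which brings vitamin A out of the liver. Fetuin-A (Ahsg) binds calcium phosphate, and fetuin-B (Fetub) inhibits a protease that hardens the egg coat. Hemopexin (Hpx) binds free heme. Ambp encodes a precursor that is split into alpha-1-microglobulin and the protease inhibitor bikunin, and Serpina6 encodes the glucocorticoid carrier transcortin. Their main source is the hepatocyte, whereas the biliary epithelial cells that line the bile ducts are not known as one.

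Bulk RNA was sequenced from cells sorted out of mouse livers, with 3 libraries in each of 4 groups. All mice were labelled wild type and shared the same treatment. An AAV8 vector, AAV8-TBG-Cre, brought Cre under a thyroxine binding globulin promoter, which is active in hepatocytes, and 1 week later a diet containing 0.1% DDC, a porphyrin-inducing compound that injures bile ducts, was given for 8 weeks. EGFP marks the hepatocyte lineage. The early group was EGFP+ Cd24- Epcam-, the intermediate group EGFP+ Cd24+ Epcam- and the full group EGFP+ Cd24+ Epcam+. The BEC group (biliary epithelial cells) was EGFP- Epcam+, and its gate did not use Cd24. No group without DDC was analysed here. Strain, age and reporter allele are not given in the sources used here, nor is whether the libraries of a group came from separate mice, so p-values measure only the spread between these libraries. The study addresses how expression changes over stages of reprogramming from hepatocyte to biliary cell.

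Library totals ran from 15112893 to 19731887 counts. Levels are CPM (a gene's count relative to its library's total) scaled by TMM factors, which correct for abundant genes that take a large share of a library. The factors were 0.652 to 0.672 in early libraries and 1.03 to 1.22 in the others. Labelled cell types were checked against marker genes. The summed CPM of 16 hepatocyte markers, members left out, was 56412 ± 1494 for early, 11522 ± 1293 for intermediate, 2237 ± 386 for full and 1135 ± 210.5 for BEC libraries (SD, n = 3). The sum of 12 biliary markers was 1367 ± 508, 10972 ± 1539, 14055 ± 1854 and 16729 ± 2106 CPM in the same order. Markers of other cells also moved with the groups. In the same order, the mean sums were 23.1, 32.0, 75.9 and 141 CPM for macrophages, 24.5, 2.65, 0.571 and 0.818 for erythroid cells, 201, 105, 57.6 and 66.3 for fibroblasts and stellate cells and 18.3, 10.9, 3.22 and 4.15 for endothelial cells. The rise for macrophages was mostly that of Csf1r, at 3.94, 24.6, 67.7 and 126.6 CPM. Cd68 went the other way, from 13.9 CPM in early to 3.46 in BEC, and every other macrophage marker averaged at most 3.68 CPM. The erythroid sum was mostly Alas2, at 24.3, 2.47, 0.571 and 0.818 CPM. Lymphocyte and neutrophil sums were at most 1.28 CPM in any library. Their part in the results was not tested. In bulk samples, fewer cells that express a gene and less RNA per cell cannot be told apart.

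Promoters are shown for 2 pairs, the relatives Alb and Gc and the neighbours Ahsg and Fetub. Promoters of 7 of the 9 genes were taken from RefSeq's promoter table (GRCm38.p6). Serpina6 had no entry there, and Ttr was left out of the search, so whether it has an entry is not shown. Each sequence is the 250 bases before the annotated start, 5′ to 3′. Capitals mark the letters CCAAT, the box bound by NF-Y, and TGTTTNC, a core of FOXA sites, on either strand. The regions are chr5:90460620-90460869 (plus strand) for Alb, chr5:89457899-89458148 (minus strand) for Gc, chr16:22891765-22892014 (plus strand) for Ahsg and chr16:22918132-22918381 (plus strand) for Fetub.
Alb: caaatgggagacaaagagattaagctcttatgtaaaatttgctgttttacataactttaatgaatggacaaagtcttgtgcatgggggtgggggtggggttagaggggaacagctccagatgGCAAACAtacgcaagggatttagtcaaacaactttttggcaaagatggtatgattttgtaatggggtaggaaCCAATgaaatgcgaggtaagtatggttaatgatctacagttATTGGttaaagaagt
Gc: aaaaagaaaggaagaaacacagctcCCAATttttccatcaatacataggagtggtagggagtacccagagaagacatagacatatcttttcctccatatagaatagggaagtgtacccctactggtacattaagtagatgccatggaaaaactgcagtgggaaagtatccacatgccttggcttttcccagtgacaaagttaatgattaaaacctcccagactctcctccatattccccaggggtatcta
Ahsg: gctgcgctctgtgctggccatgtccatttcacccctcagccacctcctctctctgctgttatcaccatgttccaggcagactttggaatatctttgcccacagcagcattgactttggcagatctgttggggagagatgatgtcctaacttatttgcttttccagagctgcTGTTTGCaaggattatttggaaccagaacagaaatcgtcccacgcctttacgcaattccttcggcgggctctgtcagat
Fetub: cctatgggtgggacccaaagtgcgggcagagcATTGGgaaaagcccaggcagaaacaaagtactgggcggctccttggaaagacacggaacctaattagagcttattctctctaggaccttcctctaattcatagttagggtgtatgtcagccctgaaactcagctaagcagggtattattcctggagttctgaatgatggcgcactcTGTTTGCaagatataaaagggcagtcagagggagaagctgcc
CCAAT, which 33.8% of the 32851 promoters of the table hold, had 2 matches before Alb, 1 before Gc, 1 before Fetub and none before Ahsg. TGTTTNC, which 17.8% hold, had 1 match before Alb, 128 to 122 bases from the start, 1 before Ahsg, 79 to 73 bases from the start, 1 before Fetub, 42 to 36 bases from the start, and none before Gc. Letters for C/EBP sites (TTGCNNAA, in 9.56% of promoters), HNF4 sites (CAAAGTNCA, 1.19%) and the TATA box (TATAAA, 12.4%) were also searched and are not capitalised. C/EBP letters lay before Alb (94 to 87 bases) and Ahsg (32 to 25), and TATA letters before Fetub (31 to 26). HNF4 letters lay before none of these genes. The matches do not overlap each other. These matches are letters only, and binding was not measured. In RefSeq's gene order Ahsg and Fetub are adjacent protein-coding genes on chromosome 16, followed by Hrg, and the next protein-coding gene after Alb on chromosome 5 is its relative Afp.

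Together the 9 genes held a falling share of the transcriptome from early to full, and a smaller one again in BEC. BEC are EGFP- and lie outside the marked lineage, so they are a reference group and not a stage. The 9 genes' share of all counts was 8.21%, 7.86% and 8.06% in early replicates 1, 2 and 3, 2.92%, 3.14% and 3.28% in intermediate, 0.992%, 0.930% and 1.09% in full and 0.536%, 0.510% and 0.583% in BEC. The groups did not overlap, and these shares use no scaling between libraries. The means were 8.04% ± 0.176, 3.11% ± 0.185, 1.01% ± 0.0823 and 0.543% ± 0.0368 (SD, n = 3). The share of mitochondrial genes moved with the groups as well, with means of 7.63% in early, 4.27% in intermediate, 2.33% in full and 2.88% in BEC, and early replicate 2 was the highest library at 11.4%. Without mitochondrial counts the members' mean shares were 8.71%, 3.25%, 1.03% and 0.559%. Their makeup changed too. Alb held 60.3% ± 2.73 of the members' counts in early and 30.8% ± 3.54 in full, while Ambp went from 3.54% ± 0.356 to 15.8% ± 1.16 and was at 22.8% ± 1.60 in BEC.

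**Figure D1:**
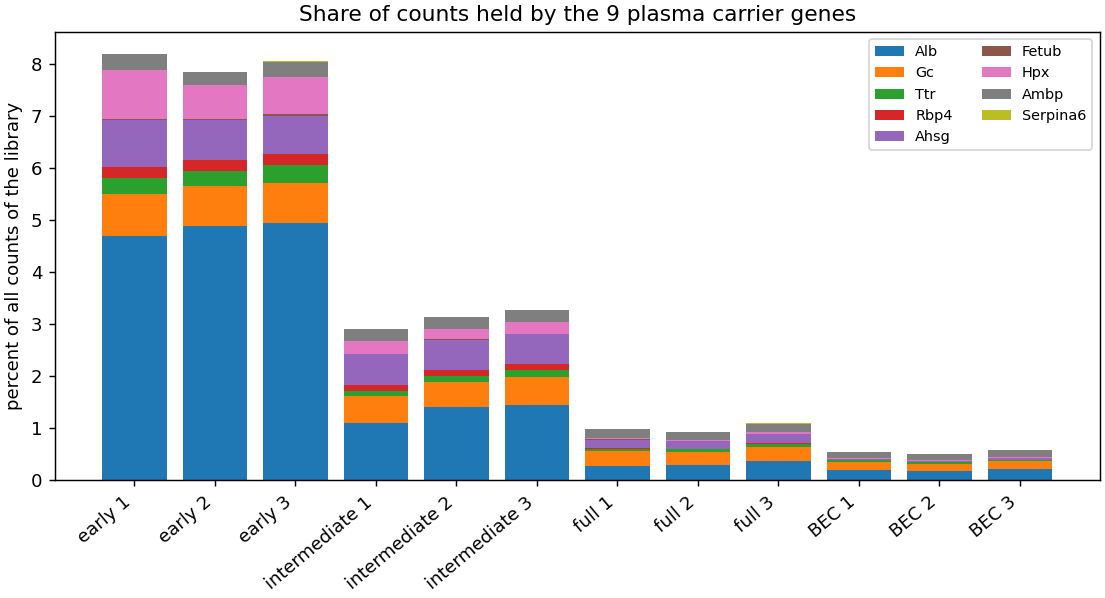
Stacked bars give the percent of all counts of each of the 12 libraries that each of the 9 genes holds, starting at 0. Early bars reach 7.86% to 8.21%, mostly Alb, and BEC bars 0.510% to 0.583%.

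All 9 genes were lower in intermediate than in early cells, with no overlap between the libraries of these groups. Over all genes tested, 25.7% were called lower in this comparison and 27.6% were lower without overlap. A call is an adjusted p under 0.05 in edgeR's quasi-likelihood test, with Benjamini-Hochberg adjustment over the 16210 genes. The members' log2 fold changes ran from -2.74 (Fetub) to -0.93 (Ambp), with a median of -1.96 against 0.06 for all genes tested. Scaled by total counts, 8 of 9 were called at this step, beside 1623 of the 16210 genes (10%), and Ambp was not (-0.26, edgeR adjusted p 0.0521). All 9 fell again from intermediate to full, where 19.8% of genes were called lower and 27.0% were lower without overlap. Those changes ran from -3.04 (Serpina6) to -0.79 (Ambp), with a median of -2.12 against 0.01. In BEC 7 of 9 were lower than in full, again without overlap, where 10.6% of genes were called lower and 19.0% were lower without overlap. Fetub and Serpina6 were not called there, and the median was -0.81 against 0.00. The other 7 were thus lower in all 3 comparisons, as were 3.52% of genes tested. All 9 were also lower in full and in BEC than in early, where 32.1% and 33.0% of genes were called lower; in full against early 33.3% were lower without overlap, as all 9 were.

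**Figure D2:**
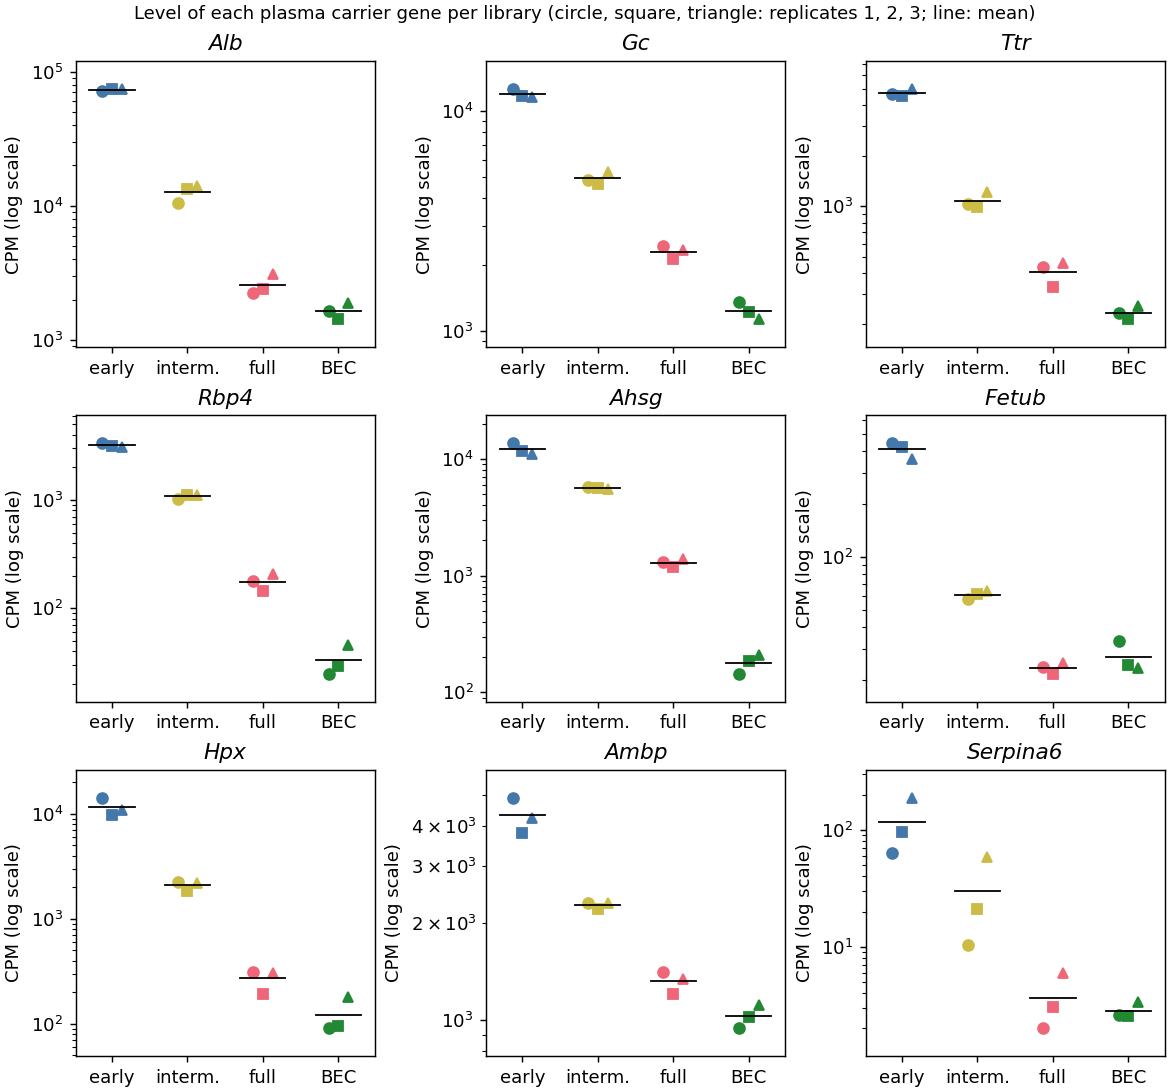
Each panel plots the CPM of 1 gene on a log scale in the 12 libraries by group, with replicate numbers as symbols and the group mean as a line. Each gene falls from early to full without overlap, Rbp4 and Ahsg are lower still in BEC, and the full and BEC libraries of Fetub overlap.

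Alb, the most abundant member, fell at both steps and was lower in BEC than in full. Alb was at 71988, 74617 and 73693 CPM in early, 10484, 13323 and 14044 in intermediate, 2235, 2417 and 3085 in full and 1649, 1420 and 1886 in BEC (replicates 1, 2 and 3). The groups did not overlap, and replicate 3 was the highest of its group in intermediate, full and BEC. The log2 fold change was -2.54 (SE 0.18, edgeR adjusted p 6.35e-08) at the first step and -2.29 (SE 0.18, edgeR adjusted p 4.17e-07) at the second. Between full and BEC it was -0.64 (SE 0.17, edgeR adjusted p 0.0133), a call lost without full replicate 3 (-0.49, adjusted p 0.0752) or without BEC replicate 2 (-0.55, adjusted p 0.0718).

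Gc had smaller log2 fold changes than Alb at both steps and a larger one between full and BEC, though the differences between the genes were not tested. Gc was at 12554, 11647 and 11511 CPM in early, 4832, 4664 and 5289 in intermediate, 2423, 2119 and 2322 in full and 1355, 1228 and 1130 in BEC. Again the groups did not overlap. The log2 fold changes were -1.27 (SE 0.12, edgeR adjusted p 7.71e-07) at the first step, -1.11 (SE 0.12, edgeR adjusted p 5.63e-06) at the second and -0.89 (SE 0.12, edgeR adjusted p 8.42e-05) for BEC against full. Full cells were at 19.2% ± 1.30 of the early mean of Gc and 3.51% ± 0.610 of that of Alb (SD, n = 3). The ratio of Gc to Alb counts within a library, which needs no scaling, was 0.156 to 0.174 in early, 0.752 to 1.08 in full and 0.599 to 0.864 in BEC. Of the relatives on the list, afamin (Afm), a vitamin E carrier, was at 154 ± 23.0 CPM in early and 7.78 ± 3.38 in full, a change of -4.30 (SE 0.31, edgeR adjusted p 2.29e-08). Alpha-fetoprotein (Afp), the fetal relative, was at 12.2 ± 2.06 and 2.65 ± 0.601 CPM, a change of -2.20 (SE 0.29, edgeR adjusted p 1.11e-05). Afm and Afp were picked out after their values were seen.

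The thyroxine and retinol carriers, which circulate as a complex, had unlike differences between full and BEC. Ttr was at 4619, 4554 and 4995 CPM in early, 1031, 996 and 1216 in intermediate, 436, 331 and 461 in full and 232, 213 and 255 in BEC. Rbp4 was at 3337, 3113 and 3095 CPM in early, 1021, 1100 and 1108 in intermediate, 178, 144 and 207 in full and 24.8, 29.1 and 45.9 in BEC. Neither had groups that overlapped, and replicate 2 was the lowest full library for both genes. Between full and BEC the log2 fold change of Ttr was -0.81 (SE 0.14, edgeR adjusted p 0.000633) and that of Rbp4 -2.40 (SE 0.20, edgeR adjusted p 1.46e-06). The ratio of Ttr to Rbp4 counts within a library was 1.49 ± 0.117 in early, 1.004 ± 0.0960 in intermediate, 2.32 ± 0.111 in full, and in BEC it was 7.40 ± 1.90 (SD, n = 3), with no overlap between groups.

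Stra6, the cell surface receptor for Rbp4, moved the other way. It had 0 counts in the early libraries and was at 8.56 ± 0.687 CPM in BEC (SD, n = 3). That is at least 31.4-fold higher than the floor of 3 counts in 1 early library, taken where it is largest (0.273 CPM). BEC also exceeded full cells, with a log2 fold change of 3.31 (SE 0.38, edgeR adjusted p 6.74e-05). Stra6l, a related retinol transporter of the liver, was at 349.7 ± 48.4 CPM in early and 166 ± 15.2 in BEC, a change of -1.08 (SE 0.15, edgeR adjusted p 1.79e-05) that was lost with the scaling (-0.21 with total counts, edgeR adjusted p 0.197). Stra6 and Stra6l were picked out after their values were seen.

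The neighbours Ahsg and Fetub both fell at the first and the second step, by different amounts, and of the pair only Ahsg was called lower in BEC than in full. Ahsg was at 13646, 11694 and 11070 CPM in early, 5700, 5629 and 5523 in intermediate, 1297, 1189 and 1390 in full and 144, 185 and 209 in BEC. Fetub was at 442, 419 and 361 CPM in early, 57.5, 61.5 and 64.0 in intermediate, 23.9, 21.8 and 25.0 in full and 33.4, 24.3 and 23.5 in BEC. The groups of Ahsg did not overlap, whereas the full and BEC libraries of Fetub did. At the first step the log2 fold change of Fetub was -2.74 (SE 0.13, edgeR adjusted p 2.80e-09) and that of Ahsg -1.11 (SE 0.14, edgeR adjusted p 1.94e-05). At the second step Ahsg changed by -2.12 (SE 0.15, edgeR adjusted p 2.08e-07) and Fetub by -1.37 (SE 0.13, edgeR adjusted p 2.52e-06). In BEC against full Ahsg was at -2.85 (SE 0.15, edgeR adjusted p 4.91e-08), the largest difference of the 9 members there, and Fetub at 0.20 (SE 0.13, edgeR adjusted p 0.358). The ratio of Ahsg to Fetub counts within a library was 29.8 ± 1.67 in early, 92.3 ± 6.40 in intermediate, 54.8 ± 0.682 in full, and in BEC it was 6.94 ± 2.38 (SD, n = 3), without overlap.

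Hrg, the next gene on chromosome 16, encodes histidine-rich glycoprotein, a plasma protein of the cystatin superfamily like the fetuins. It had 925 ± 130 CPM in early, 77.1 ± 2.95 in intermediate, 8.81 ± 1.63 in full, while BEC had 10.3 ± 2.23 (SD, n = 3). The difference between BEC and full was not called, at 0.23 (SE 0.17, edgeR adjusted p 0.424). The kininogens, precursors of bradykinin, belong to the same superfamily. Kng1 was at 32.7 ± 8.74 CPM in full and 27.6 ± 7.33 in BEC, -0.25 (SE 0.21, edgeR adjusted p 0.495). Kng2 was at 103 ± 24.5 and 12.4 ± 3.02 CPM, -3.05 (SE 0.19, edgeR adjusted p 1.77e-07), and was picked out after its values were seen. The difference between Kng1 and Kng2 was not tested. They are close copies, and how shared reads were counted is not given in the sources used here, so their split is uncertain.

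**Figure D3:**
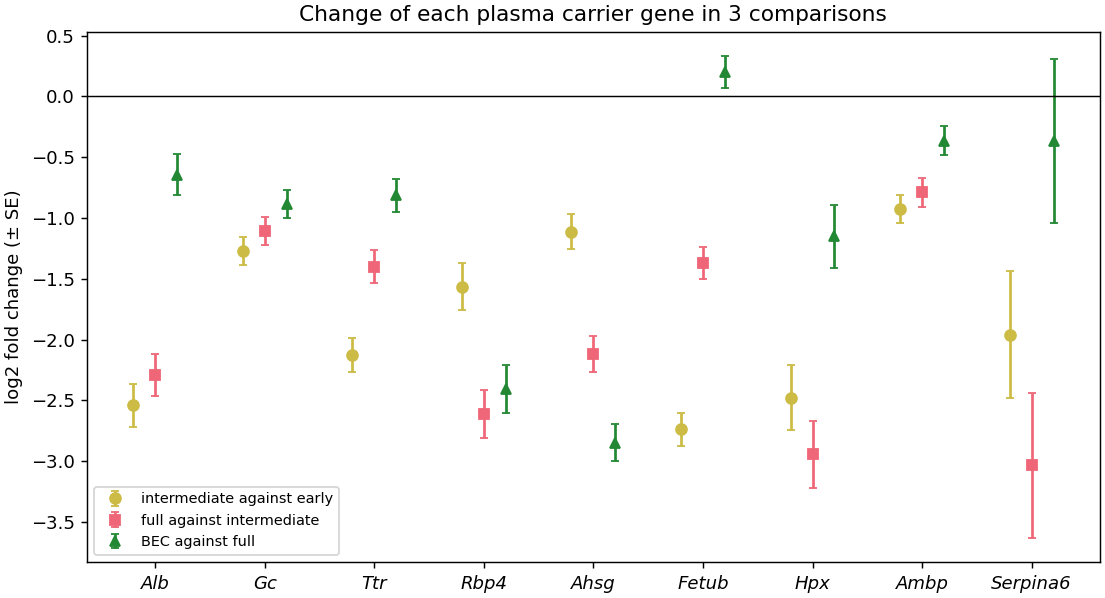
Points give the log2 fold change of each gene, with bars for 1 SE, for intermediate against early, full against intermediate and BEC against full. The first fall exceeds the second for Fetub and is the smaller for Rbp4 and Ahsg, and for BEC against full Rbp4 (-2.40) and Ahsg (-2.85) lie lowest.

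Hpx and Ambp lay at opposite ends of the range of changes from early to full. Hpx was at 14267, 9819 and 10746 CPM in early, 2233, 1854 and 2171 in intermediate, 312, 193 and 308 in full and 90.8, 95.3 and 179.9 in BEC. Ambp was at 4911, 3824 and 4233 CPM in early, 2304, 2207 and 2316 in intermediate, 1411, 1207 and 1338 in full and 942, 1023 and 1111 in BEC. Neither had groups that overlapped, and early replicate 1 and BEC replicate 3 were the highest of their groups for both genes. From early to full the log2 fold change of Hpx was -5.42 (SE 0.31, edgeR adjusted p 2.23e-09) and that of Ambp -1.71 (SE 0.12, edgeR adjusted p 2.01e-08). For BEC against full, Hpx was at -1.15 (SE 0.26, edgeR adjusted p 0.00537) and Ambp at -0.36 (SE 0.12, edgeR adjusted p 0.0423), the latter a call lost with median-of-ratios scaling (adjusted p 0.0512) and in 7 of 12 fits that each left out 1 library, whose adjusted p ran from 0.0195 to 0.147. Those fits left out any intermediate library, full replicate 1 or 3, or BEC replicate 1 or 2.

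Full cells were at 30.5% ± 2.39 of the early mean of Ambp and 2.33% ± 0.582 of that of Hpx (SD, n = 3). Bikunin is secreted joined to heavy chains encoded by Itih genes. Full cells were at 6.27% of the early mean of Itih1, 17.5% of Itih2, 1.21% of Itih3 and 4.05% of Itih4, which is a relative that does not join bikunin. The log2 fold changes were -4.00 (SE 0.16), -2.52 (SE 0.15), -6.37 (SE 0.28) and -4.63 (SE 0.22), with edgeR adjusted p of 8.55e-11, 4.33e-09, 2.22e-10 and 4.15e-10. The difference from Ambp was not tested. Itih5 changed least, -0.55 (SE 0.14, edgeR adjusted p 0.00356), and this turned with the scaling (0.31 with total counts, edgeR adjusted p 0.0571). All 7 genes of the list of heavy chains and kininogens were called lower in full than in early, as were 32.1% of all genes. With total counts 6 of the 7 were, beside 14.8% of all genes. Lrp1, the endocytic receptor for heme bound to hemopexin, was at 1189 ± 117 CPM in early, 305 ± 42.7 in full and 102 ± 22.8 in BEC. Itih1, Itih2, Itih5 and Lrp1 were picked out after their values were seen.

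Serpina6 was the scarcest member and the one most variable between EGFP+ replicates. Serpina6 was at 63.9, 96.1 and 189.9 CPM in early, 10.4, 21.0 and 58.3 in intermediate, 1.9975, 3.03 and 5.94 in full and 2.60, 2.56 and 3.33 in BEC. Replicate 3 was the highest and replicate 1 the lowest in each EGFP+ group, and full and BEC overlapped. Set against the early library with the same number, the full level was 3.13%, 3.15% and 3.13%, and against the early mean it was 3.13% ± 1.75 (SD, n = 3). The log2 fold change was -1.96 (SE 0.52, edgeR adjusted p 0.00589) at the first step and -3.04 (SE 0.60, edgeR adjusted p 0.00108) at the second. With the replicate number as a block the SE was 0.21 and 0.25, with changes of -2.10 and -2.90 (edgeR adjusted p 1.33e-06 and 5.92e-07). Between BEC and full it was -0.37 (SE 0.67, edgeR adjusted p 0.783), a sign that turned without full replicate 3 (0.17, adjusted p 0.927).

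Hsd11b1, which regenerates active glucocorticoid inside hepatocytes, went from 266 ± 28.0 CPM in early to 6.15 ± 0.847 in full, -5.43 (SE 0.26, edgeR adjusted p 4.80e-10). Hsd11b2, which inactivates glucocorticoid in epithelia such as kidney, had 1 count over the 3 early libraries and was at 5.86 ± 0.990 CPM in BEC. Serpina7, a relative of Serpina6, encodes thyroxine binding globulin, whose promoter drove Cre here. It was at 336 ± 63.2 CPM in early, 194 ± 44.4 in intermediate, 15.7 ± 3.28 in full, while BEC had 10.5 ± 1.68 (SD, n = 3). Its second change, -3.63 (SE 0.22), was a larger fall than its first, -0.79 (SE 0.19), with an edgeR adjusted p of 5.60e-05 for the difference. The first was lost with the scaling (-0.13 with total counts, edgeR adjusted p 0.556). Hsd11b2 and Serpina7 were picked out after their values were seen.

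Whether a gene changed more at the second step than at the first was tested in the same fit, as the second log2 fold change minus the first. Over all genes tested, 10.8% had a lower second change and 5.64% a higher one, with a median difference of -0.08. Ahsg, -1.01 (SE 0.24, edgeR adjusted p 0.0117), and Rbp4, -1.05 (SE 0.32, edgeR adjusted p 0.0387), fell more at the second step. Fetub fell more at the first, 1.37 (SE 0.23, edgeR adjusted p 0.00114). Ttr missed the threshold, 0.73 (SE 0.24, edgeR adjusted p 0.0519), and passed it with the replicate number as a block (0.73, edgeR adjusted p 0.00677), which gave 2 members a lower and 2 a higher second change. The Rbp4 call was lost with median-of-ratios scaling (-0.95, adjusted p 0.0582) and in 7 of 12 fits without 1 library, with adjusted p from 0.00607 to 0.124. Those fits left out early replicate 2 or 3, any intermediate library, or full replicate 1 or 2. For Alb, Gc, Hpx, Ambp and Serpina6 the differences lay between -1.08 and 0.25 with SE from 0.20 to 0.92, and none passed.

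Ratios to Alb within a library, which no scaling can move, also set the members apart. Ahsg to Alb was 0.166 ± 0.0211 in early, 0.453 ± 0.0798 in intermediate, 0.508 ± 0.0663 in full and, for BEC, 0.109 ± 0.0216 (SD, n = 3). Ambp to Alb was 0.0590 ± 0.00859, 0.183 ± 0.0314, 0.521 ± 0.101 and 0.627 ± 0.0813 in the same order. The mean ratio for Ambp was higher at each stage from early to full and higher again in BEC, with overlap between full and BEC, and for Ahsg it was below the early level in BEC. Ttr to Alb was 0.0643 ± 0.00337, 0.0865 ± 0.0118, 0.161 ± 0.0307 and 0.142 ± 0.00739, and Rbp4 to Alb 0.0434 ± 0.00260, 0.0863 ± 0.00978, 0.0688 ± 0.0101 and 0.0200 ± 0.00467. Hpx to Alb was 0.159 ± 0.0351, 0.169 ± 0.0390, 0.106 ± 0.0305 and 0.0725 ± 0.0207, and its full libraries overlapped every other group, as early did intermediate. Intermediate and full also overlapped for the ratios of Ahsg and Rbp4 to Alb, and full and BEC for those of Ttr and Gc. In BEC, the ratios of Ambp, Gc and Ttr to Alb were above those in early libraries and those of Ahsg, Rbp4 and Hpx below, each without overlap.

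**Figure D4:**
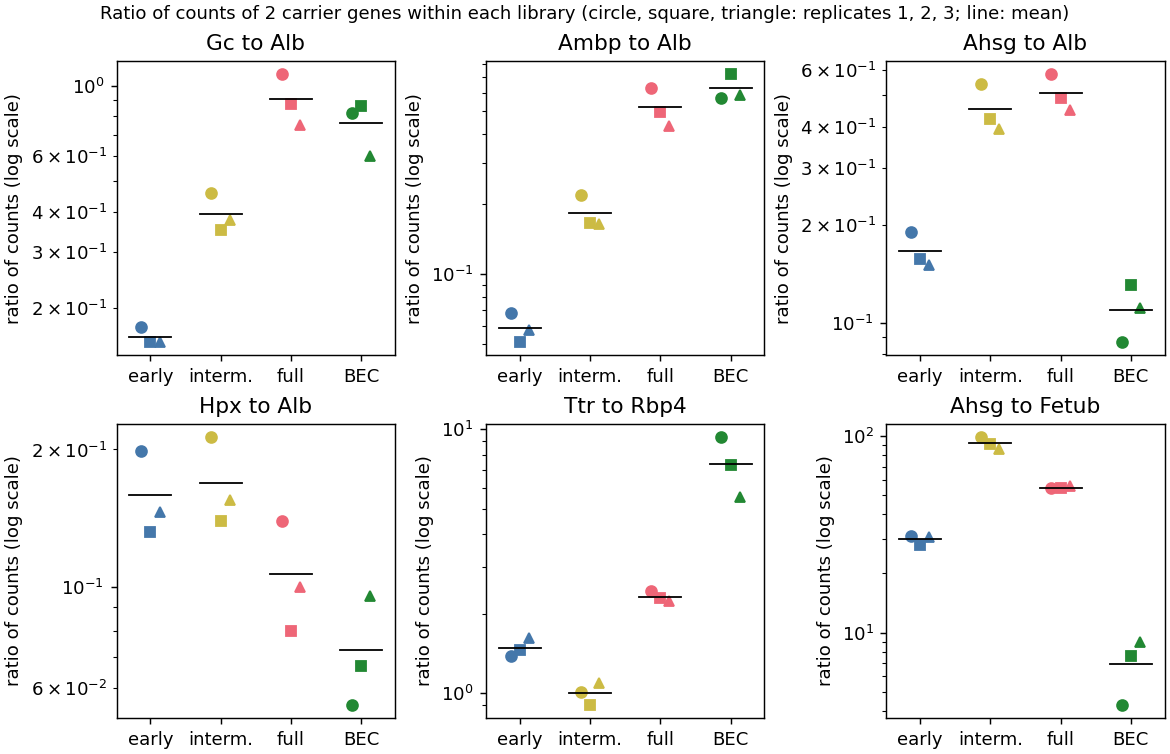
Each panel plots the ratio of counts of 2 genes on a log scale in the 12 libraries by group, with replicate numbers as symbols and group means as lines. Gc to Alb and Ambp to Alb rise from early to full, Ahsg to Alb is below its early level in BEC, the full libraries of Hpx to Alb overlap every other group, and Ttr to Rbp4 is highest in BEC.

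Levels of different genes were compared per kilobase of the longest coding transcript in GENCODE M21. In early cells Alb stood first at 36103 ± 656 CPM per kilobase, followed by Ahsg at 8178 ± 905, Hpx at 7746 ± 1566 and Gc at 6610 ± 315 (SD, n = 3). Then came Ttr at 3982 ± 201, Rbp4, below Ambp, at 2740 ± 116, Fetub at 255 ± 26.3 and Serpina6 at 72.7 ± 40.8. Ahsg and Hpx overlapped, as did Hpx and Gc. In full cells Gc and Alb did not differ beyond their spread, at 1270 ± 86.1 and 1268 ± 220.2 CPM per kilobase, followed by Ambp at 1040 ± 81.4 and Ahsg at 871 ± 67.8. In BEC, Alb at 812 ± 114 and Ambp at 809 ± 66.4 were within their spread, Gc was at 687 ± 62.7 and Ahsg at 121 ± 22.4. With the median transcript length the early order was Alb, Hpx, Gc, Ahsg, Ambp, Rbp4, Ttr, Fetub and Serpina6. In full and in BEC, Alb then ranked 3, after Gc and Ambp in full and after Ambp and Gc in BEC.

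The level in BEC was set beside hepatocyte markers, which moved with the members. As a percent of the early mean, BEC libraries were at 23.7% ± 1.95 for Ambp, 10.4% ± 0.948 for Gc, 6.65% ± 1.36 for Fetub and 4.94% ± 0.445 for Ttr (SD, n = 3). They were at 2.43% ± 0.373 for Serpina6, 2.25% ± 0.317 for Alb, 1.48% ± 0.273 for Ahsg, 1.05% ± 0.433 for Hpx and 1.05% ± 0.350 for Rbp4. The 16 hepatocyte markers had a median of 1.28% in BEC, from 0.931% (Apoa1) to 11.4% (Hnf4a), and of 1.25% in full, with Hnf4a again the highest at 16.4%. By library, the marker median was 0.724%, 1.19% and 1.66% in BEC replicates 1, 2 and 3 and 1.03%, 1.26% and 1.69% in full.

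Rbp4 and Hpx in BEC lay at the level of the markers, at 0.767 to 1.08 and 0.687 to 1.08 times the marker median of the same library. The marker median was highest in BEC replicate 3, as were 7 of the 9 members, including Ambp and Ttr, which lay well above it. Ahsg was at 1.04 to 1.64 times and Alb at 1.54 to 3.10 times. Ambp, at 15.5 to 30.1 times, exceeded all 16 markers in every BEC library. Gc, at 5.71 to 15.7 times, and Fetub, at 3.46 to 11.3 times, exceeded at least 15 of 16, and these were the 2 members lowest in BEC replicate 3. In full cells Ahsg was at 6.79 to 10.4 times and Rbp4 at 3.60 to 5.45 times the marker median. The part of hepatocytes or their RNA in these levels was not tested. Scaled by total counts, the percentages of the early mean were larger, such as 43.3% for Ambp and 4.10% for Alb in BEC.

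**Figure D5:**
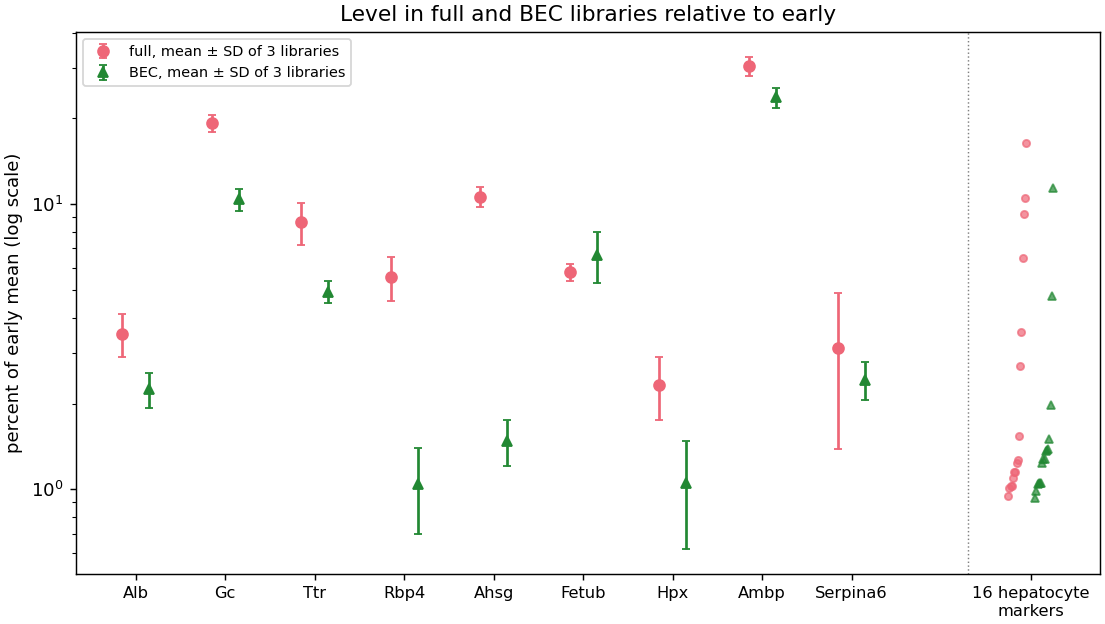
The level in full and BEC as a percent of the early mean is plotted on a log scale for each gene, as mean and SD of 3 libraries, beside the group means of 16 hepatocyte markers. Ambp lies above all markers in both groups and Gc in full, and Rbp4 and Hpx in BEC lie among the many markers near 1%.

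Genes most like each member were sought among 9953 others with a mean of at least 10 CPM, by the root mean square distance in log2 CPM over the 12 libraries after each gene's early mean was subtracted. This is a description, since all points share libraries and scaling. For Alb they were Tkfc, Gstm1 and Sec14l2 (0.215, 0.216 and 0.217), for Gc Mtus1, Slc38a4 and Gas2 (0.0998, 0.116 and 0.117) and for Ambp Cryz, Grina and Ptpmt1 (0.0833, 0.0835 and 0.0888), with distances in brackets. Rbp4 was nearest to Serpina1a, Abcb4 and Gfra1 (0.114, 0.148 and 0.234). Of these, Abcb4, the canalicular phospholipid transporter, was at 5.14% of its early mean in full and 1.07% in BEC. Ahsg was nearest to Maob, Smlr1 and Vtn (0.279, 0.290 and 0.296), where Vtn encodes vitronectin, another hepatocyte plasma protein, with 14.3% in full and 1.29% in BEC. Ttr was nearest to Amy1, C4bp and Adhfe1, Fetub to Phyh, Entpd5 and Ldhd, Hpx to Apof, Azgp1 and Spp2 and Serpina6 to Slc46a3, Vnn3 and Abcd2. The genes named depend on the measure. By Pearson correlation of log2 CPM, Rbp4 and Hpx kept 2 of their 3 genes, Ttr kept 1 and every other member 0. The member nearest to Alb by distance, Serpina6, was at 0.630, at rank 92. Serpina1a and Amy1 belong to families of near-identical genes, and their counts are uncertain.

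Of 11 other plasma transport and binding proteins, 10 fell at the first step, 11 fell at the second and 6 were lower in BEC than in full, and none was higher. Over all genes tested, 25.7%, 19.8% and 10.6% were called lower. The list's median log2 fold changes were -1.997, -1.72 and -0.83, beside 0.06, 0.01 and 0.00 for all genes. All 11 were lower in full than in early, as were 32.1% of all genes. With total counts 10 were, beside 14.8% of all genes. Hrg, -6.71 (SE 0.20, edgeR adjusted p 1.32e-11), Orm2, -6.70 (SE 0.49, edgeR adjusted p 2.61e-08), and Orm1, -6.50 (SE 0.29, edgeR adjusted p 2.41e-10), fell most. Orm1 and Orm2 encode orosomucoids, acidic drug-binding proteins, and are close copies with an uncertain split of reads. Cp, the copper-carrying ceruloplasmin, changed least, with 5438 ± 222 CPM in early, 3218 ± 209 in full and 2873 ± 627 in BEC. It was the gene not called at the first step, -0.13 (SE 0.15, edgeR adjusted p 0.464), and was called higher there with the other scaling (0.53 with total counts, edgeR adjusted p 0.00393). Its fall from early to full was also lost (0.11 with total counts, edgeR adjusted p 0.480). Cp was picked out after its values were seen.

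Of 26 receptors and enzymes that handle the cargo, 23 were tested, of which 16 were lower and 6 higher in full than in early, where 32.1% and 39.1% of all genes were called lower and higher. The median was -1.47 beside 0.14 for all genes, and with total counts the split was 11 lower and 8 higher, beside 14.8% and 66.4% of all genes. Asgr1, -6.73 (SE 0.27, edgeR adjusted p 1.25e-10), and Asgr2, -6.21 (SE 0.26, edgeR adjusted p 1.59e-10), fell most. They form the asialoglycoprotein receptor, which clears desialylated plasma glycoproteins. Dab2, an endocytic adaptor of the albumin receptors cubilin and megalin, went from 1.85 ± 0.904 CPM in early to 49.3 ± 2.91 in full, 4.76 (SE 0.24, edgeR adjusted p 8.28e-10), and was at 18.3 ± 2.93 in BEC. The cubilin gene Cubn averaged under 1 CPM in every group, and the megalin gene Lrp2 was too low to test. Flvcr1, a heme exporter, had 5.04 ± 0.902 CPM in early and 19.0 ± 1.40 in full, 1.91 (SE 0.15, edgeR adjusted p 4.97e-08). Fcgrt, the receptor that spares albumin from degradation, was at 175 ± 23.5 CPM in early, 79.2 ± 3.46 in full and 47.1 ± 2.95 in BEC. Vdr, the vitamin D receptor, had 0 counts in early and 15.3 ± 3.48 CPM in BEC, at least 56.1-fold higher than the same floor. Cubn, Lrp2, Fcgrt and Vdr were picked out after their values were seen.

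Factors known to act at the albumin promoter and other liver promoters were called in both directions. Of 16 tested, 7 were lower and 6 higher in full than in early, where 32.1% and 39.1% of all genes were called lower and higher. The list's median was 0.12 beside 0.14 for all genes. With total counts 6 were lower and 9 higher, beside the 14.8% and 66.4% of all genes. Rxra, -3.13 (SE 0.14, edgeR adjusted p 2.18e-10), Cebpa, -2.94 (SE 0.20, edgeR adjusted p 1.14e-08), and Foxa3, -2.64 (SE 0.17, edgeR adjusted p 9.01e-09), fell most. Onecut1, 2.19 (SE 0.28, edgeR adjusted p 9.18e-06), and Nfya, 1.82 (SE 0.19, edgeR adjusted p 1.22e-06), were among those that rose. Nfya encodes a subunit of NF-Y, and Foxa3 a FOXA factor. Of the other FOXA genes, Foxa1 was called higher, 0.69 (SE 0.14, edgeR adjusted p 0.000614), and Foxa2 was not called, 0.04 (SE 0.12, edgeR adjusted p 0.777), but was higher with the other scaling (0.91 with total counts, edgeR adjusted p 1.87e-05). Foxa1 and Foxa2 were picked out after the values were seen. The part of these factors in the members' levels was not tested.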

How the data were processed

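Bulk RNA was measured in 12 libraries, grouped by their titles. The authors deposited counts per gene symbol and a signal table of these counts divided by 1 size factor per library, constant within each library. STAR 2.7.10b, featureCounts 2.0.1, DESeq2 and GRCm39 are named per the submitters' processing notes. Annotation, strandedness and reads matching several genes are not given in the sources used here, so genes with close copies are uncertain.

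Counts were tested with edgeR 4.0.16 (R 4.3.3): genes kept by filterByExpr, TMM factors, 1 fit of all 12 libraries with a term per group, and the quasi-likelihood test. SE is the log2 fold change divided by the root of F. A floor of 3 counts was 0.128 to 0.273 CPM per library and covers counting error only, since PCR copies are not independent molecules. Same-numbered libraries deviated together (r from 0.121 to 0.322 across genes) in each of the 3 successive comparisons. Libraries with different numbers were not compared, so whether the numbers mark pairs is not shown, and the main fit did not use them. In the other comparisons 1 or more pairs had r under 0.1. Pairs within a group differed beyond counting error. The test was checked on simulated counts, with 200 of 15643 genes changed by 1 log2 unit, up and down in equal number. It recovered 96% of them, and 4.48% of its calls were false. The simulation held no shift in composition between groups, so it did not check the scaling. Motifs were searched on both strands.

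The genes and lists were chosen with earlier results of these data known. All 9 members were named, and per list the 3 genes that fell most and the 3 that rose most from early to full, if called and at 10 CPM or more in either group; genes outside this rule are marked where they appear. Some genes of the lists are not reported here. Alternatives were DESeq2 1.42.0, other scaling, filters, a replicate block, fits of 6 libraries and fits without 1 library.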

Additional observations from a re-analysis of the deposited data

How the results depend on the processing

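Of 54 results for a member between groups, all kept their direction and side of the threshold with DESeq2, both filters on low counts, the replicate block and fits of only the 6 libraries compared. Median-of-ratios factors lost Ambp between BEC and full (-0.35, adjusted p 0.0512). Total counts lost Ambp between intermediate and early (-0.26, adjusted p 0.0521); they move the median over all genes from 0.06 to 0.72 there and from 0.14 to 1.004 in full against early. Fits without 1 library lost 9 of 648 results, 7 of Ambp and 2 of Alb, all in BEC against full, and reversed Serpina6 there, whose values ran from -0.67 to 0.17.

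The comparison of the 2 steps was less stable. The replicate block, DESeq2, median-of-ratios factors and both filters gave 2 members a higher second change in place of 1, with Ttr added (adjusted p 0.00448 to 0.0344), and median-of-ratios factors gave 1 a lower second change in place of 2. Fits without 1 library gave 1 to 2 lower and 1 to 2 higher, and values for Serpina6 from -1.89 to 0.76, the highest without intermediate replicate 3. With total counts the differences of Alb (-0.21), Gc (-0.30) and Ambp (-0.33) turned negative, while the median over all genes was -0.54. The cause was not tested. The replicate block changed no other call of a member. Depth limits Serpina6 most, with 47, 68 and 136 counts in full.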
